A study of Homo sapiens with 10 samples.

Results

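Nuclear-encoded subunits of the mitochondrial respiratory chain and ATP synthase were followed in human bronchial epithelial BEAS2B cells after transfection of 3 miRNA agents, alone or mixed. Members were taken by gene symbol: NDUFA, NDUFB, NDUFC, NDUFS or NDUFV with a number, symbols beginning with UQCR, COX4 to COX8 with a letter, and symbols beginning with ATP5. Pseudogenes were left out, rows that repeat a symbol were summed, and at least 10 counts were required in at least 2 of the 10 libraries. Of 52402 symbols, 251 matched by name, 164 of these were pseudogenes, and 12 of the other 87 had too few counts, which left 75 members. Of these, 71 encode a subunit: 35 of complex I, 8 of complex III, 13 of complex IV with NDUFA4 and COX7A2L, and 15 of complex V. The other 4 are the antisense RNA NDUFB2-AS1, the readthrough NDUFC2-KCTD14, and ATP5S and ATP5SL, which are named after ATP synthase but do not encode one of its subunits.

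Complex I takes electrons from NADH, complex III passes them from ubiquinol to cytochrome c, and complex IV hands them to oxygen, while complex V uses the resulting proton gradient to make ATP. Each complex except complex II combines subunits translated in the cytosol from nuclear genes with a few catalytic subunits encoded by mitochondrial DNA. The nuclear-encoded subunits are usually expressed together, at high level, in cells that depend on oxidative phosphorylation.

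BEAS2B is an immortalized line derived from normal human bronchial epithelium. All 5 groups were cells of this wild-type line transfected with the lipid reagent Lipofectamine, and each group had 2 libraries of messenger RNA. The groups received scrambled miRNA (miRcontrol), a miR-3124-5p mimic (miR3124_mimic), a miR-200b-3p mimic (miR200b_mimic), a miR-92b inhibitor (miR92b_inhibitor) or the mixture of all 3 agents (3-miRNA_mixed). A mimic is a synthetic duplex that adds a miRNA, and an inhibitor is an oligonucleotide that blocks one. The agents were used at a final concentration of 50 nM, and RNA was taken after 48 h. The sources do not say whether 50 nM in the mixture applied to each agent or to all together. The labels do not say whether the replicates came from separate cultures, so p-values measure only the spread between these libraries, which may be technical.

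Total counts were 13587666 to 18503890 per library, of which the 75 members took 0.530% to 0.592%. As a check of the labels, ZEB1 and ZEB2, established targets of miR-200b-3p, fell in miR200b_mimic (log2 fold change -1.29 ± 0.07, adjusted p = 3.55e-21, and -2.27 ± 0.11, adjusted p = 3.61e-23) and in 3-miRNA_mixed (-1.12 and -1.66). The labelled cell type was borne out only in part by its markers: KRT8 and KRT18, keratins of simple epithelia, were at 814 and 619 to 638 normalized CPM (read counts scaled to a common library size) in miRcontrol, whereas the epithelial adhesion genes EPCAM and CDH1 were at 0.119 to 0.458 CPM there and the mesenchymal filament gene VIM at 3707 to 3894 CPM. In miR200b_mimic, EPCAM was at 10.1 to 10.2 CPM and CDH1 at 9.03 to 10.9 CPM. Summed over 9 epithelial markers the level was 2227 to 2273 CPM in miRcontrol, 4202 to 4282 in miR200b_mimic, 4091 to 4118 in 3-miRNA_mixed, 2785 to 2794 in miR3124_mimic and 2102 to 2192 in miR92b_inhibitor. The sum of 4 mesenchymal markers was 7377 to 7397 CPM in miRcontrol, 6898 to 7041 in miR92b_inhibitor and 4439 to 4996 over the libraries of the other 3 groups. The genes behind these lower sums differed. FN1, another of the 4, was at 3181 to 3347 CPM in miRcontrol and 3330 to 3436 in miR3124_mimic. It was at 1369 to 1444 in miR200b_mimic, 1953 to 2026 in 3-miRNA_mixed and 2368 to 2490 in miR92b_inhibitor. VIM was at 2972 to 2992 CPM in miR200b_mimic and 2684 to 2775 in 3-miRNA_mixed. In miR3124_mimic VIM was at 799 to 827 CPM, and the epithelial keratin gene KRT19 was at 0.615 to 0.905 CPM, beside 7.94 to 8.47 in miRcontrol. Of 4 fibroblast markers, DCN had 0 counts, LUM and PDGFRA did not exceed 0.226 CPM, and PDGFRB was at 7.61 to 7.64 CPM in miRcontrol and 28.0 to 30.9 in miR3124_mimic. The leukocyte marker PTPRC and the endothelial marker PECAM1 did not exceed 0.219 CPM in any library, whereas CD68, a lysosomal gene of macrophages, was at 26.3 to 27.0 CPM in miRcontrol and 38.8 to 40.7 in miR92b_inhibitor, and the endothelial cadherin gene CDH5 was at 2.49 to 4.03 CPM in miR3124_mimic and at most 0.538 elsewhere. The part of these shifts in the results on respiratory subunits was not tested.

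The mature miRNAs, from RefSeq on GRCh38.p14, are shown because their seeds (bases 2 to 8, in capitals) define the target words searched in the members further on. The paper selected miR-92b-5p for its panel of exosomal miRNAs. Neither its methods nor the labels give the arm of miR-92b that the inhibitor blocks, so both arms are listed. None of the 4 seeds is shared.
miR-3124-5p, chr1:248826383-248826403, + strand: uUCGCGGGcgaaggcaaaguc
miR-200b-3p, chr1:1167160-1167181, + strand: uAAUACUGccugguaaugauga
miR-92b-3p, chr1:155195237-155195258, + strand: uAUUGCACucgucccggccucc
miR-92b-5p, chr1:155195196-155195217, + strand: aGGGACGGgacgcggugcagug

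Levels of the members spanned a wide range before any comparison. Levels were compared between genes as CPM per kilobase, using the median length of each gene's coding transcripts in GENCODE release 29. The transcripts present in these cells were not determined, so ranks and medians of levels depend on the annotated lengths. In NDUFA11 the median length was 2154 bases, beside 539 for the transcript searched for target words further on. On that scale the median subunit stood at 45.4 in complex I, 87.7 in complex III, 97.1 in complex IV and 121 in complex V. The highest were ATP5J2, subunit f of the ATP synthase membrane part, with a mean of 328 CPM per kilobase (307 to 344 over the 10 libraries), and ATP5B, the catalytic beta subunit, with 317 (286 to 369). These 2 ranges overlap, and both lie above ATP5H, the subunit d of the stalk, at 206 (194 to 225). The lowest were NDUFA6, COX6B2 and UQCRC2, at 0.968, 0.970 and 0.988 CPM per kilobase. UQCRC2, a core subunit of complex III, stood far below its core partner UQCRC1, whose level was 92.8 CPM per kilobase. The symbols NDUFA6, UQCRC2, NDUFS1 and NDUFA10 each appear on more than 1 row of the deposited tables, and reads may have been split or lost between such copies, so the levels of the first 3 are uncertain. NDUFA3, another complex I subunit, was listed on 10 rows and fell short of the count minimum.

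Tissue-restricted paralogues were nearly silent. COX6A2 and COX7B2 had 0 counts in all 10 libraries, which with 3 counts as the limit in each library allows at most 0.221 CPM. COX8C also had 0 counts, but it is listed on 2 rows, and reads may have been lost between them, so no limit is given. COX4I2, COX7A1 and NDUFA4L2 stayed at or below 0.377 CPM in every library. Their widely expressed counterparts COX4I1, COX6A1, COX7A2, COX7B, COX8A and NDUFA4 had mean levels of 77.1, 84.5, 82.0, 48.2, 98.6 and 64.5 CPM. COX6B2, a paralogue of COX6B1 known from testis, was the exception among the restricted forms that passed the count minimum, and its level changed between groups as described below.

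Across the 5 groups, 58 of the 75 members (77.3%) differed in an F test at adjusted p under 0.05, beside 77% of the 14884 genes tested. Here and below, calls are edgeR quasi-likelihood tests with Benjamini-Hochberg adjustment over all genes tested, log2 fold changes are given ± SE, and levels are normalized CPM in the 2 libraries of a group. Levels are relative to the library, so a change in total RNA per cell would not be seen. In these bulk samples, changes within cells and in the mix of cells cannot be told apart. Apart from a few large changes the members moved little: the middle 50% of their log2 fold changes spanned 0.25 with the miR-3124-5p mimic, 0.15 with the miR-200b-3p mimic, 0.21 with the inhibitor and 0.23 with the mixture, whereas over all genes tested it spanned 0.58, 0.46, 0.40 and 0.46. Genes with a mean of 20 to 200 CPM, the window that holds 66 of the members, spanned 0.45, 0.35, 0.31 and 0.36.

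**Figure D1:**
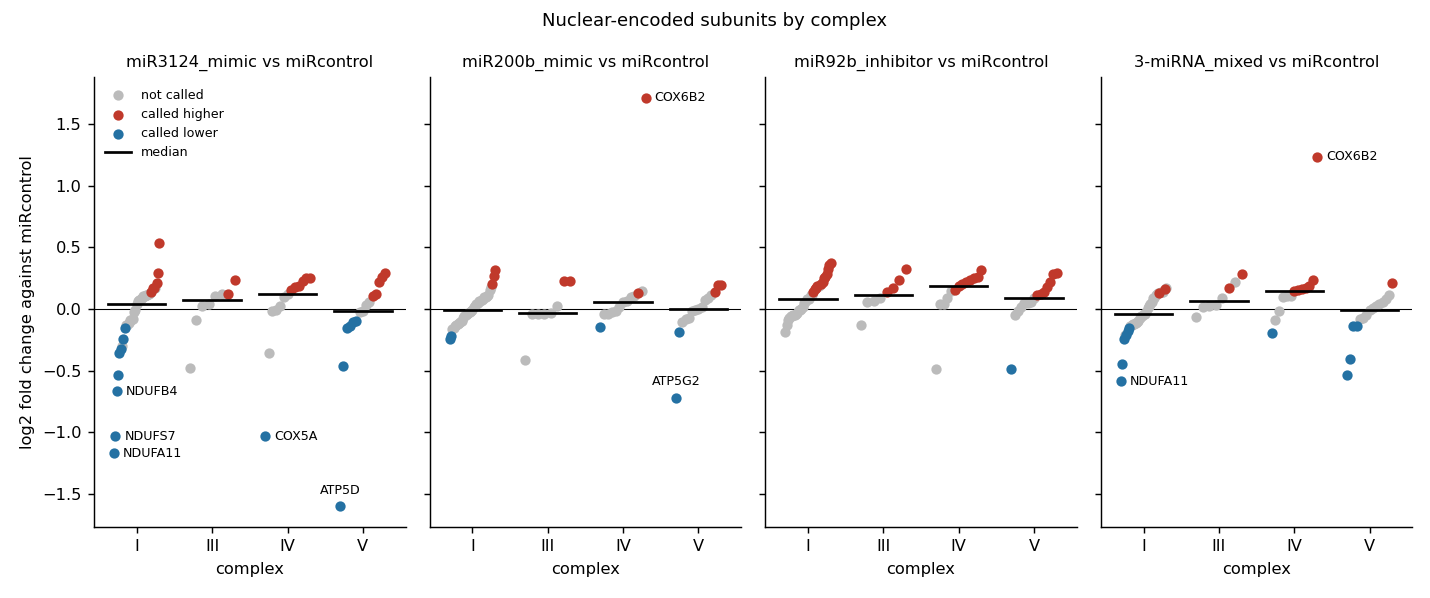
Log2 fold change (vertical axis) of the 71 subunit genes against miRcontrol, one panel per transfected group, with the genes of each complex side by side in rising order; red and blue points passed the test, grey points did not, and the black line is the median of the complex. The largest falls, ATP5D at -1.60 and NDUFA11 at -1.17, are in miR3124_mimic, and in miR92b_inhibitor all but 1 of the points that passed lie above 0.

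The miR-3124-5p mimic gave the largest falls of single subunits. In miR3124_mimic, 21 members were higher than in miRcontrol and 15 lower, beside 25.7% and 25.3% of all genes tested, and the median member changed by 0.04, beside 0.00 for all genes. The 4 members with a fold of at least 2, beside 8.13% of all genes, all fell. They belong to 3 complexes.

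ATP5D encodes the delta subunit in the central stalk of complex V, which turns with the proton-driven rotor. Its levels were 53.1 and 55.3 CPM in miRcontrol and 18.0 and 17.8 in miR3124_mimic (-1.60 ± 0.07, adjusted p = 2.27e-23). NDUFA11, a membrane-arm subunit of complex I, had levels of 74.7 and 73.9 in miRcontrol and 31.9 and 34.0 with the mimic (-1.17 ± 0.07, adjusted p = 6.89e-20). In both genes the gap between the groups was many times the gap between replicates. NDUFS7, the core subunit that carries the last iron-sulfur cluster before ubiquinone, went from 33.2 and 38.1 to 15.8 and 18.8 (-1.03 ± 0.09, adjusted p = 9.50e-14). COX5A, a matrix-side subunit of complex IV that binds thyroid hormone, went from 83.7 and 86.1 to 41.4 and 41.6 (-1.03 ± 0.06, adjusted p = 9.86e-21). In all 4 genes both mimic libraries lay below both miRcontrol libraries. COX5A and NDUFS7 lay just past a fold of 2, and with upper quartile scaling (-0.99 each) 2 of the 4 stayed past it. Over all 13 alternatives COX5A ran from -1.06 to -0.99 and NDUFS7 from -1.17 to -0.93. ATP5D (chr19:1241746-1244826), NDUFS7 (chr19:1383527-1395589) and NDUFA11 (chr19:5891276-5904006) lie on the short arm of chromosome 19, and COX5A lies on chromosome 15 (chr15:74919791-74938168), all on GRCh38. UQCR11 (chr19:1597172-1605490), a complex III subunit that lies between NDUFS7 and NDUFA11, and NDUFA7 (chr19:8308768-8321396), of complex I, did not pass in miR3124_mimic (0.10 and 0.08). Also on this arm, the complex I genes NDUFB7 (chr19:14566078-14572062) and NDUFA13 (chr19:19515736-19529054) went opposite ways, with a fall (-0.54) and a rise (0.21).

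**Figure D2:**
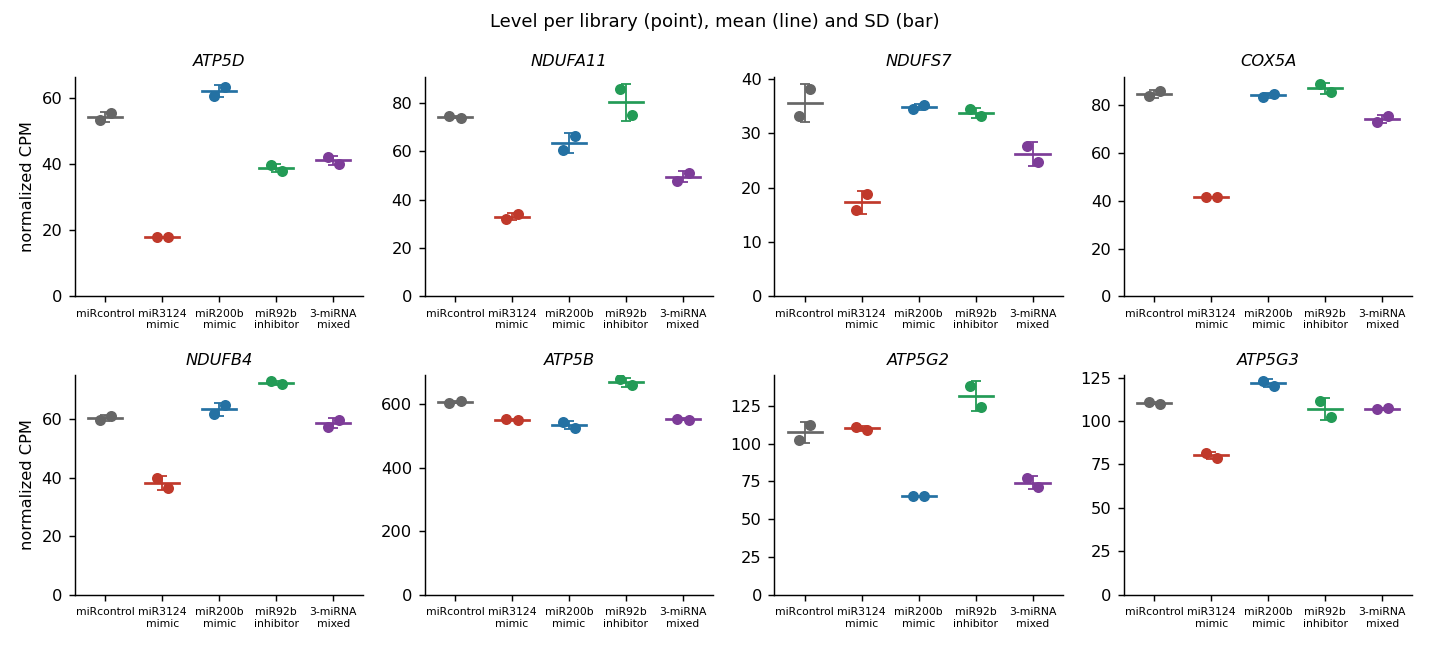
Normalized CPM (vertical axis, from 0) of 8 subunit genes in each of the 10 libraries, with points for libraries, a line for the group mean and a bar for the SD (n = 2). ATP5D, NDUFA11, NDUFS7, COX5A, NDUFB4 and ATP5G3 are lowest in miR3124_mimic, ATP5B is highest in miR92b_inhibitor, and ATP5G2 is lowest in miR200b_mimic and 3-miRNA_mixed.

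Of the other 11 members that fell, 6 belong to complex I and 5 to complex V. The accessory subunits NDUFB4 and NDUFB7 fell by 0.67 and 0.54 on the log2 scale. Among other core or catalytic subunits, NDUFV2, UQCRC1 and ATP5A1 rose (0.14, 0.13 and 0.10) and ATP5B and ATP5C1, the stalk subunit gamma, fell (-0.14 and -0.10). NDUFS3, NDUFS8, NDUFV1, UQCRFS1 and UQCRC2 did not pass (0.12, -0.09, -0.09, -0.09 and -0.48). Of the 5 calls, that of ATP5B was kept in all 13 alternatives, and the others were lost in 2 to 9. By complex, 6 subunits of complex I rose and 8 fell, of complex III 2 rose and 0 fell, of complex IV 6 rose and 1 fell, and of complex V 5 rose and 6 fell.

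No rise reached the size of the largest falls. NDUFS1, the largest core subunit of complex I, had levels of 6.53 and 5.79 in miRcontrol and 9.29 and 8.66 with the mimic (0.54 ± 0.15, adjusted p = 0.00271), at a level that is uncertain because its symbol is listed on 2 rows. NDUFC2-KCTD14 rose by 0.44, while NDUFC2, whose exons it shares, fell by 0.32, and counting may have split reads between the pair. ATP5SL, ATP5E and NDUFB6 rose by 0.34, 0.29 and 0.29, the last not without miRcontrol replicate 2. Without miRcontrol replicate 1, or without miR3124_mimic replicate 2, 12 members were called higher in place of 21.

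In miR200b_mimic few members moved. Of the 75, 11 were higher than in miRcontrol and 5 lower, beside 21.4% and 19.1% of all genes tested, and 1 passed a fold of 2, beside 4.88%. The median member changed by 0.02. The share of members called was thus below the share of all genes in either direction.

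ATP5G2 fell most. It is 1 of 3 genes that encode the same mature c subunit, the protein of the proton-carrying ring of complex V. Its levels were 103 and 113 CPM in miRcontrol and 65.6 and 65.4 in miR200b_mimic (-0.72 ± 0.06, adjusted p = 7.81e-15). NDUFV1, the core subunit that binds NADH and flavin, had 75.3 and 73.5 and 61.8 and 63.9 (-0.24 ± 0.06, adjusted p = 5.01e-04). ATP5B fell from 603 and 609 to 542 and 525 (-0.18 ± 0.03, adjusted p = 1.90e-05). NDUFA11 and COX8A fell by 0.22 and 0.15. Both calls were lost without miR200b_mimic replicate 1, and that of COX8A also without miRcontrol replicate 2 and with DESeq2.

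Among the rises, COX6B2 had the largest log2 fold change at a low level: 1.26 and 0.716 CPM in miRcontrol against 3.07 and 3.45 with the mimic (1.71 ± 0.32, adjusted p = 2.19e-05). Its widely expressed counterpart COX6B1 had 72.5 and 81.4 and 77.8 and 73.5 (-0.03 ± 0.06, adjusted p = 0.751). NDUFC2-KCTD14, the readthrough named above, rose by 0.45 on the log2 scale. NDUFV2, the core partner of NDUFV1, rose by 0.27, UQCRFS1, the Rieske iron-sulfur protein of complex III, by 0.22, and UQCR10, a small subunit of complex III, by 0.23. The UQCR10 call was lost without miRcontrol replicate 1, and without that library 7 members were higher in place of 11 and 2 passed a fold of 2 in place of 1. DESeq2 also called 7 higher. Without miR200b_mimic replicate 1, 3 were lower in place of 5, and with upper quartile scaling 10 were.

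In the miR-92b inhibitor group the members shifted in one direction. The sources do not say whether the scrambled control was of the mimic or the inhibitor type. Blocking of miR-92b and the type of oligonucleotide therefore cannot be told apart. In miR92b_inhibitor, 32 of 75 members (42.7%) were higher than in miRcontrol and 1 was lower, beside 17.5% and 18.2% of all genes tested. Among genes with a mean of 20 to 200 CPM, 25.9% were higher and 24.9% lower, and 31 of the 66 members in that window were higher. The changes were small: the median member rose by 0.11 on the log2 scale, 55 of 75 lay above 0, and 0 passed a fold of 2, beside 1.91% of all genes. The shift ran through all 4 complexes, with 12 of 35 subunits higher in complex I, 4 of 8 in complex III, 8 of 13 in complex IV and 7 of 15 in complex V.

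NDUFB3, a small membrane-arm subunit of complex I, had 30.9 and 30.7 CPM in miRcontrol and 40.6 and 39.2 in miR92b_inhibitor (0.37 ± 0.07, adjusted p = 5.73e-05). NDUFA12, at the junction of the arms, went from 37.9 and 37.5 to 47.1 and 49.5 (0.36 ± 0.07, adjusted p = 3.17e-05). NDUFB9 went from 74.0 and 68.8 to 93.3 and 85.8 (0.33 ± 0.05, adjusted p = 2.43e-06). In these 3 genes both inhibitor libraries lay above both miRcontrol libraries.

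UQCR10 and COX7B, a small subunit of complex IV, each rose by 0.32. ATP5B rose from 603 and 609 to 678 and 659 (0.14 ± 0.03, adjusted p = 8.58e-04), and its partner in the catalytic head, ATP5A1, did not pass (0.06 ± 0.04, adjusted p = 0.224). Among other core subunits, NDUFS3 and UQCRFS1 rose (0.17 ± 0.07, adjusted p = 0.0422, and 0.14 ± 0.05, adjusted p = 0.0385), calls lost in 6 and 5 of 13 alternatives. NDUFS1, NDUFS7, NDUFS8, NDUFV1, NDUFV2, UQCRC1, UQCRC2 and ATP5C1 did not pass, with values between -0.13 and 0.11. The member that fell was ATP5D, with 53.1 and 55.3 CPM in miRcontrol and 39.6 and 37.8 in miR92b_inhibitor (-0.49 ± 0.06, adjusted p = 3.25e-08). ATP5D thus fell with the inhibitor while ATP5E, its neighbour in the central stalk, rose by 0.29.

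The number called higher rested in part on single libraries. It was 19 without miRcontrol replicate 1, 21 without miR92b_inhibitor replicate 1 and 21 with DESeq2, with at most 2 members lower in any of these. The median member stayed between 0.09 and 0.13 when each library was left out in turn.

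In 3-miRNA_mixed, 14 members were higher and 11 lower than in miRcontrol, beside 21.5% and 21.1% of all genes tested, and the median member changed by 0.02. COX6B2 was the member with a fold of at least 2, beside 4.67% of all genes: 2.21 and 2.48 CPM (1.23 ± 0.33, adjusted p = 0.00211). Without miRcontrol replicate 2, COX6B2 did not pass (0.89, adjusted p = 0.0773), and the higher members numbered 8 without 3-miRNA_mixed replicate 2 and 9 without miRcontrol replicate 1 or with DESeq2. The larger falls were in genes that also fell with at least 1 of the mimics alone, against the same miRcontrol libraries. NDUFA11 was at 47.8 and 51.1 CPM (-0.59 ± 0.06, adjusted p = 4.69e-11) and ATP5G2 at 77.6 and 71.0 (-0.54 ± 0.05, adjusted p = 1.54e-11). NDUFS7, ATP5D and NDUFB7 fell by 0.44, 0.40 and 0.24. Among members over 5 CPM, the largest rises were those of NDUFC2-KCTD14 (0.51), ATP5SL (0.33), UQCR10 (0.29), COX6A1, a small subunit of complex IV (0.24), and ATP5E, the epsilon subunit of the central stalk (0.21). UQCR10 was at 44.5 and 47.3 CPM in miRcontrol and 54.9 and 57.0 in 3-miRNA_mixed. In complex IV 7 of 13 subunits were higher and 1 lower, and in complex I 2 of 35 higher and 6 lower. The shares of all genes tested were 21.5% and 21.1%. Among the named rises in complex IV, the call was kept in 7 of 13 alternatives for COX7B, 9 for COX7A2 and 10 for NDUFA4. It was kept in 11 for COX7A2L, 12 for COX6B2 and 13 for COX6A1.

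The mixture was also compared directly with each agent alone. These fold changes do not use the levels of miRcontrol, although its libraries were part of the same fit. Against miR3124_mimic, 18 members were higher and 11 lower, beside 25.3% and 23.8% of all genes tested. ATP5D, COX5A, NDUFB4, NDUFS7 and NDUFA11 were higher in the mixture by 1.20, 0.84, 0.62, 0.59 and 0.58, so the falls seen with the mimic alone were smaller in the mixture. The dose of each agent in the mixture is not given. A lower dose and the presence of the other agents therefore cannot be told apart, here or in the next comparisons. For NDUFB4 the level in the mixture, 57.4 and 59.8 CPM, lay close to the 59.6 and 61.1 of miRcontrol (-0.04 ± 0.06, adjusted p = 0.597). The count of lower members was 5 without miR3124_mimic replicate 2, 7 without 3-miRNA_mixed replicate 2, 5 with DESeq2, 18 with 10 counts required in every library and 24 with upper quartile scaling.

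Against miR200b_mimic, 12 members were higher and 12 lower in the mixture, beside 18.2% and 20.4%. ATP5G2 was higher by 0.18, and ATP5D, NDUFS7 and NDUFA11 were lower (-0.60, -0.41 and -0.37). COX6B2 did not differ past the threshold (-0.48 ± 0.28, adjusted p = 0.176). The number of higher members was 5 to 7 when a library of either group was left out, 5 with DESeq2 and 7 without a filter on low counts.

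Against miR92b_inhibitor, 2 members were higher and 21 lower in the mixture, beside 19.7% and 19.9%. The 2 higher were COX6B2 and NDUFC2-KCTD14. The lower ones included ATP5G2 (-0.82), NDUFA11 (-0.70), NDUFB4, NDUFC2 and ATP5G1 (-0.31 each), and ATP5B (-0.28). ATP5D, which fell with the inhibitor and in the mixture, did not pass between them (0.08 ± 0.07, adjusted p = 0.334). Among genes with a mean of 20 to 200 CPM, 24.8% were higher and 27.5% lower in the mixture. Of the 66 members in that window 1 was higher and 19 (28.8%) were lower, so the lower share was near that of genes of like level. Fewer members were called lower whenever a library of either group was left out.

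ATP5D and ATP5B were the 2 members called in all 4 comparisons with miRcontrol, and neither moved the same way in all of them. ATP5B was lower in miR3124_mimic, at 551 and 551 CPM, in miR200b_mimic and in 3-miRNA_mixed, at 554 and 550, and higher in miR92b_inhibitor. Levels of ATP5D ran from 18.0 and 17.8 CPM in miR3124_mimic through 39.6 and 37.8 in miR92b_inhibitor, 42.0 and 40.0 in 3-miRNA_mixed and 53.1 and 55.3 in miRcontrol to 60.6 and 63.3 in miR200b_mimic. Neighbours in this order differed past the threshold except miR92b_inhibitor and 3-miRNA_mixed. The rise in miR200b_mimic (0.20 ± 0.06, adjusted p = 0.00791) was lost with DESeq2, without miRcontrol replicate 1 and without miR200b_mimic replicate 2.

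The 3 c-ring genes of complex V responded separately although they encode the same mature protein. ATP5G2 did not pass in miR3124_mimic (0.03 ± 0.05, adjusted p = 0.648), where ATP5G3 fell from 111 and 110 to 81.7 and 78.7 CPM (-0.46 ± 0.05, adjusted p = 4.45e-11). In miR200b_mimic ATP5G2 fell, and ATP5G3 was at 123 and 120 (0.14 ± 0.05, adjusted p = 0.0149, a call lost in 5 of 13 alternatives). In miR92b_inhibitor ATP5G2 rose to 139 and 124 (0.29 ± 0.05, adjusted p = 1.20e-05) and ATP5G3 did not pass (-0.05 ± 0.05, adjusted p = 0.471). ATP5G1, at 60.4 and 63.7 CPM in miRcontrol, fell in miR3124_mimic (-0.16) and 3-miRNA_mixed (-0.14), rose in miR92b_inhibitor (0.18) and did not pass in miR200b_mimic (-0.11). Those 3 calls were lost in 5, 7 and 2 of 13 alternatives.

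Summed over the 3 genes, c-ring messenger RNA was 274 and 287 CPM in miRcontrol. The sum was highest in miR92b_inhibitor, at 319 and 298, and lowest in 3-miRNA_mixed, at 241 and 235. It was 250 and 242 with the miR-3124-5p mimic and 247 and 243 with the miR-200b-3p mimic, so all 6 libraries of these 3 groups lay below miRcontrol. The share from ATP5G2 was 37.5% and 39.3% in miRcontrol, 44.5% and 45.0% in miR3124_mimic, and 26.6% and 26.9% in miR200b_mimic. The share from ATP5G1 stayed between 21.7% and 24.0% in all 10 libraries, so the composition changed between ATP5G2 and ATP5G3.

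**Figure D3:**
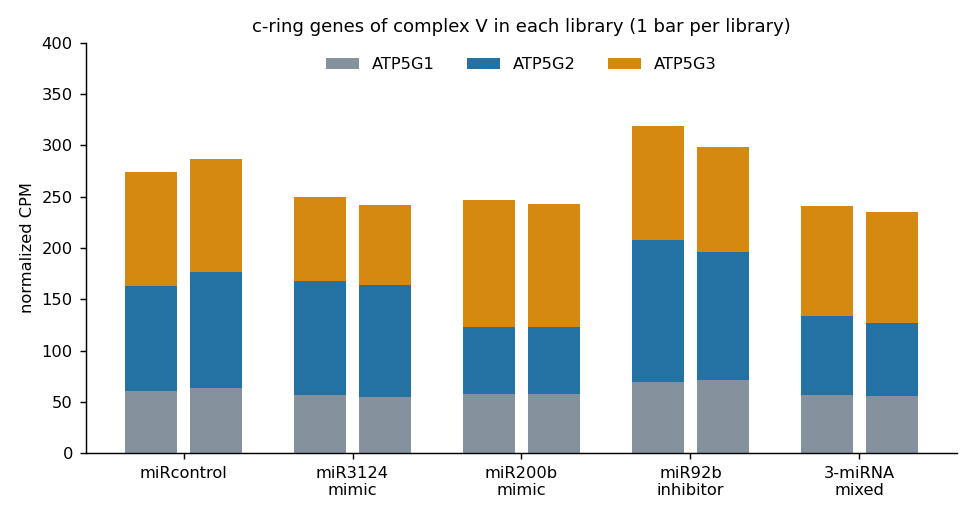
Normalized CPM (vertical axis, stacked from 0) of ATP5G1, ATP5G2 and ATP5G3, one bar per library and 2 bars per group. The blue ATP5G2 segment is shortest in miR200b_mimic, at 26.6% and 26.9% of the bar, and the whole bar is tallest in miR92b_inhibitor.

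The mitochondrially encoded partners did not follow the nuclear-encoded members. In miR92b_inhibitor they went the other way, and in miR3124_mimic they rose while the summed level of the members overlapped miRcontrol. The 13 proteins of mitochondrial DNA are catalytic or membrane subunits of complexes I, III, IV and V. In miR3124_mimic 11 of the 13 were higher than in miRcontrol and 0 lower, beside 25.7% and 25.3% of all genes tested. In miR92b_inhibitor 0 were higher and 11 lower, beside 17.5% and 18.2%. Examples are COX2, which carries the copper site that accepts electrons from cytochrome c (0.23 ± 0.04, adjusted p = 2.51e-07 in miR3124_mimic and -0.13 ± 0.04, adjusted p = 0.00259 in miR92b_inhibitor), and ATP6, the subunit a beside the c-ring (0.11 ± 0.03, adjusted p = 0.00449 and -0.31 ± 0.03, adjusted p = 5.20e-10).

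Their summed level was 34949 and 36631 CPM in miRcontrol, 40009 and 39721 in miR3124_mimic and 32085 and 31545 in miR92b_inhibitor. The summed level of the 75 members was 5377 and 5490 CPM in miRcontrol, 5279 and 5419 in miR3124_mimic and 5971 and 5787 in miR92b_inhibitor. Per 100 CPM of mitochondrially encoded subunits, the members gave 15.4 and 15.0 CPM in miRcontrol, 13.2 and 13.6 in miR3124_mimic, and 18.6 and 18.3 in miR92b_inhibitor. The other 2 groups, at 14.5 to 14.7 in miR200b_mimic and 15.1 to 15.6 in 3-miRNA_mixed, lay near miRcontrol. ATP8 overlaps ATP6 and ND4L overlaps ND4, so reads of these pairs cannot be fully told apart.

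**Figure D4:**
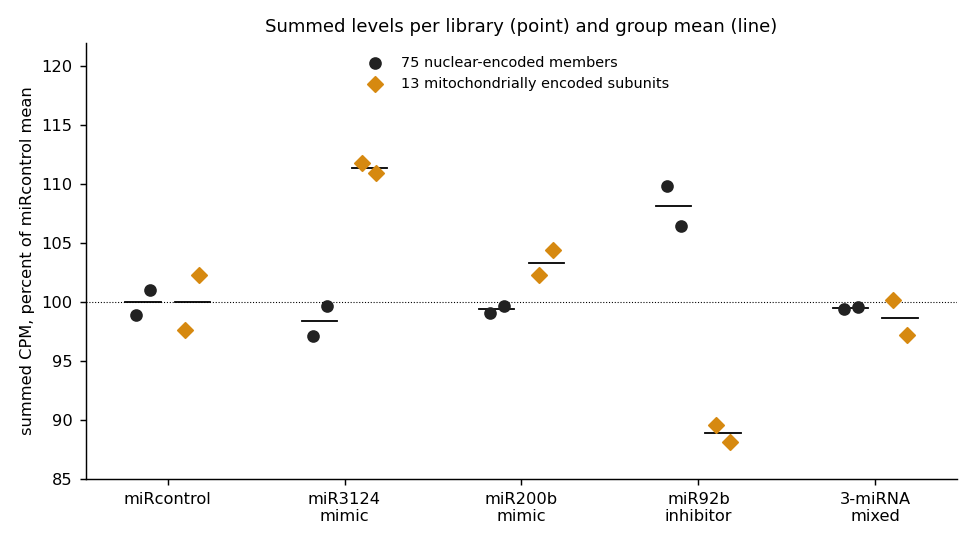
Summed CPM as percent of the miRcontrol mean (vertical axis, which does not start at 0) for the 75 nuclear-encoded members (circles) and the 13 mitochondrially encoded subunits (diamonds) in each library, with lines for group means. The circles reach 107% to 110% in miR92b_inhibitor, where the diamonds lie at 88.1% and 89.6%, and the diamonds reach 111% to 112% in miR3124_mimic.

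Other genes of the pathway were read for the same comparisons. Complex II, which has no mitochondrially encoded subunit, was 4 genes: SDHA, the flavoprotein that oxidizes succinate, fell in every group (-0.35 with the mixture, -0.31 and -0.18 with the miR-3124-5p and miR-200b-3p mimics, and -0.14 with the inhibitor), and SDHB, its iron-sulfur partner, rose in miR92b_inhibitor (0.34) and 3-miRNA_mixed (0.16). Of the 6 electron carriers and subunits whose names the rule does not cover, 4 rose and 0 fell in miR92b_inhibitor, among them cytochrome c, CYCS (0.14). Of 17 complex I assembly genes, 8 rose and 0 fell in miR92b_inhibitor, led by NDUFAF8 (0.55) and TMEM126A (0.51). In miR3124_mimic 1 rose and 6 fell, led by NDUFAF4 (-0.53) and TIMMDC1 (-0.45). Of 29 assembly genes of complexes III, IV and V, 12 rose and 2 fell in miR92b_inhibitor, and 9 rose and 11 fell in miR3124_mimic. Over all genes tested, 17.5% rose and 18.2% fell in miR92b_inhibitor, and 25.7% rose and 25.3% fell in miR3124_mimic. Among genes with a mean of 20 to 200 CPM the shares in miR3124_mimic were 30.3% and 35.4%.

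The rise in miR92b_inhibitor was not limited to the respiratory chain. Of 76 mitochondrial ribosomal protein genes 49 rose and 1 fell, of 81 cytosolic ribosomal protein genes 67 rose and 2 fell, and of 34 proteasome genes 22 rose and 0 fell. The ribosomal and proteasome lists were drawn up by symbol prefix. They took in symbols such as MRPS36 (now KGD4), RPS19BP1 and PSMC3IP, which share a prefix but may not encode such subunits. Of 13 citric acid cycle genes 5 rose and 6 fell. The shares of all genes tested in this group were 17.5% and 18.2%, and in miR3124_mimic 25.7% and 25.3%. In miR3124_mimic the ribosomal lists went down, with 7 of 76 mitochondrial ones higher and 35 lower and 0 of 81 cytosolic ones higher and 63 lower, beside 21 of the 75 members higher and 15 lower.

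**Figure D5:**
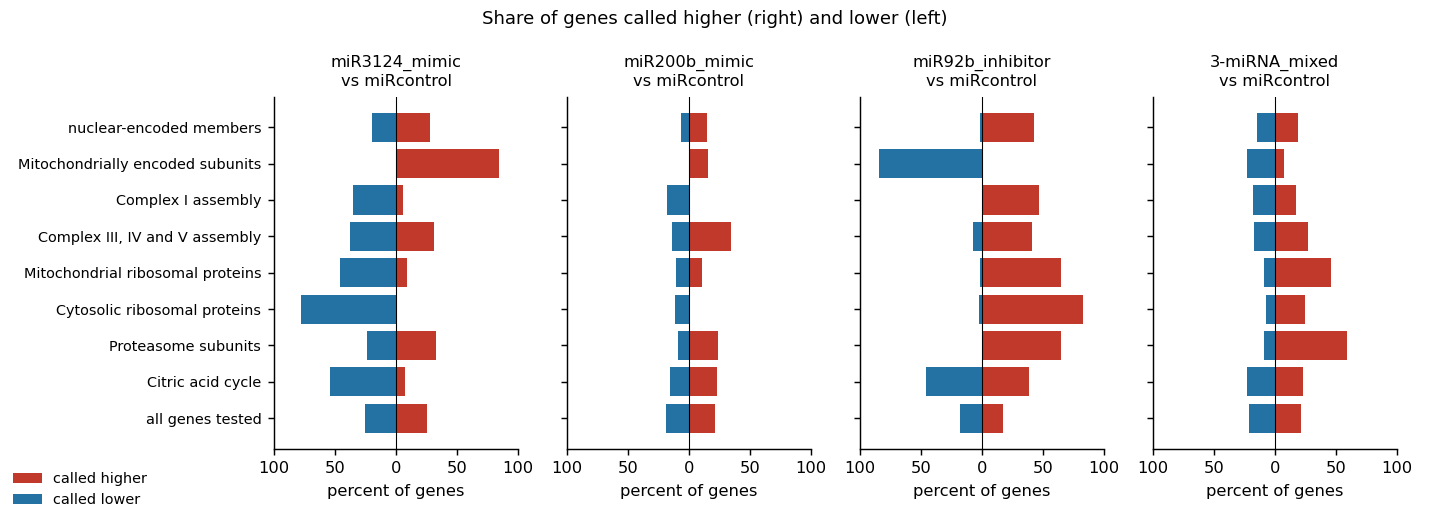
Percent of genes in each list called higher (red, to the right of 0) and lower (blue, to the left) against miRcontrol, one panel per group, with all 14884 genes tested at the bottom. In miR92b_inhibitor the members (42.7% higher) go with the assembly, ribosomal and proteasome lists, and the mitochondrially encoded subunits lie on the other side of 0.

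Among 13 tested regulators of mitochondrial biogenesis, NRF1, a transcription factor that binds many promoters of respiratory genes, fell in miR3124_mimic (-0.55 ± 0.09, adjusted p = 2.43e-06), miR200b_mimic (-0.46 ± 0.09, adjusted p = 7.05e-05) and 3-miRNA_mixed (-0.24 ± 0.09, adjusted p = 0.0225). GABPA, the DNA-binding part of a second such factor, fell in the same groups (-0.33, -0.36 and -0.32). Neither passed in miR92b_inhibitor (0.04 and 0.01). TFAM, which packages and transcribes mitochondrial DNA, rose in miR92b_inhibitor (0.16) and 3-miRNA_mixed (0.24). ESRRA rose in miR200b_mimic (0.46) and 3-miRNA_mixed (0.25), PPRC1 fell in miR3124_mimic (-0.36) and 3-miRNA_mixed (-0.20), and PPARGC1A had too few counts to be tested.

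Members were searched for the words that pair with the seeds, in GENCODE release 29 transcripts. The members have short 3′ untranslated regions, with a median of 222 bases beside 1085 over all tested genes with a coding transcript. The miR-3124-5p word CCCGCGA was in the 3′ untranslated region of 0 of 74 annotated members, beside 0.585% of 12310 tested genes, and in the coding sequence of 0, beside 4.10%. Thus none of the 15 members that fell in miR3124_mimic holds it there. It was found in the 5′ untranslated region of COX5A, which fell with the mimic, and of ATP5J, which did not pass (-0.02 ± 0.06, adjusted p = 0.855). This is 2.70% of annotated members, beside 3.41% of tested genes. The sites are shown with the word in capitals and 11 bases on either side, because one of the genes fell and the other did not.
COX5A: ctccggagcaaCCCGCGAgcttacaccgg
ATP5J, first site: aacgaggccggCCCGCGAgggcccgcgct
ATP5J, second site: gacctgcagctCCCGCGActagaagtgtg

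The miR-200b-3p word CAGTATT was in the 3′ untranslated region of at least 1 coding transcript of 10 members (13.5%, beside 20.6% of tested genes). Of these 10, ATP5B fell in miR200b_mimic, ATP5G3 rose, and the other 8 did not pass. ATP5G2, the member that fell most, does not hold the word there. In the coding sequence it was found in NDUFA11, which fell, and in ATP5A1, which did not pass (-0.01 ± 0.04, adjusted p = 0.856). These are 2.70% of annotated members, beside 10.4% of tested genes. The sites of ATP5B, ATP5G3 and NDUFA11 are shown in the same way, because these genes fell, rose and fell. That of ATP5A1 is not shown.
ATP5B, 3′ untranslated region: ttctttctgaaCAGTATTtaaggtttcca
ATP5G3, 3′ untranslated region: agctggttcaaCAGTATTttgctgctaat
NDUFA11, coding sequence: tacagcaccacCAGTATTgccagcgtcgc

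Of the 32 members that rose in miR92b_inhibitor, 2 hold the miR-92b-3p word GTGCAAT in a 3′ untranslated region and 0 the miR-92b-5p word CCGTCCC. Over all members the shares were 9.46% and 1.35%, beside 13.8% and 4.53% of tested genes. A word match is a description of the sequence and does not show a functional site.

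Promoters from RefSeq on GRCh38.p14, 250 bases before to 50 after the start, were matched for 63 members and searched on both strands for letters of 3 factors known to bind respiratory gene promoters. The NRF1 letters GCGCANGCG were in 17 (27.0%) and the ETS letters CCGGAAG, which GABPA binds, in 17 (27.0%), beside 14.4% and 18.8% of 10451 promoters of tested genes and 8.05% and 10.7% of all 27305 promoters. The YY1 letters AAGATGGC were in 9 (14.3%), beside 5.20% and 3.03%. At least 1 of the 3 was in 34 members (54.0%), beside 33.2% of promoters of tested genes. The ETS and YY1 letters share the bases AAG and can overlap, and a match does not show binding.

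The promoters of 3 of the genes that fell most in miR3124_mimic follow, because those genes fell in the same group. Capitals mark the NRF1 letters, on either strand, in NDUFA11 and NDUFS7 and the YY1 letters in NDUFS7, and COX5A holds none of the 3.
NDUFA11, chr19:5903741-5904040, - strand: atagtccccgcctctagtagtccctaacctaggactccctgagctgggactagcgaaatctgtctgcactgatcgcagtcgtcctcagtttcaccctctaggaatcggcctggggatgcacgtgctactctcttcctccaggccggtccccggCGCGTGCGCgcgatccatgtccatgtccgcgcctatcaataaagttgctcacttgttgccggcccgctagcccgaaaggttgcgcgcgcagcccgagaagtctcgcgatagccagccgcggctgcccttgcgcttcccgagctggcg
NDUFS7, chr19:1383657-1383956, + strand: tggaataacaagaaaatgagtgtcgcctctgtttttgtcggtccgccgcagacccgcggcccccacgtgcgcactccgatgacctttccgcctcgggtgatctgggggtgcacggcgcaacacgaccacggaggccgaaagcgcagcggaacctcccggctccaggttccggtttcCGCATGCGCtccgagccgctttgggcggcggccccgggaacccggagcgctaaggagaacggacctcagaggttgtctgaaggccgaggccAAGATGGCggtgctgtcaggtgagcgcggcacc
COX5A, chr15:74938024-74938323, - strand: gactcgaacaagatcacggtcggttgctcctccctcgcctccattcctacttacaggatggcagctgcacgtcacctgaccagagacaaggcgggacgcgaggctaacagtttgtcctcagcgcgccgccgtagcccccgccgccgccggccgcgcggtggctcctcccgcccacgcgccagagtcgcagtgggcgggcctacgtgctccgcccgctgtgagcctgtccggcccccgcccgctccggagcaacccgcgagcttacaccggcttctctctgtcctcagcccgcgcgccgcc

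Across members with a matched promoter, the NRF1 letters were in 4 of 10 that fell, 4 of 18 that rose and 9 of 35 that did not pass in miR3124_mimic. In miR92b_inhibitor they were in 10 of 27 that rose and 7 of 36 that did not pass.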

How the data were processed

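Gene-level read counts were taken as deposited for 10 libraries in 5 groups of 2. The authors checked reads with FastQC, trimmed them with FASTX_Trimmer and BBMap, and mapped them with TopHat to GRCh38. The tool, annotation and strand setting behind the counts are not given in the sources used here, so overlapping and antisense genes are uncertain. Rows repeating a symbol were summed. Counts were scaled by relative log expression and tested for 14884 genes with edgeR 4.0.16 in R 4.3.3 (filterByExpr, quasi-likelihood test, 1 fit over all libraries, Benjamini-Hochberg adjustment, threshold 0.05). CPM values use the same scaling. The procedure was tested on simulated data. Library totals of 13587666 to 18503890 set the counting precision, and limits from 0 counts cover counting error only. Alternatives were TMM, library totals, upper quartile, DESeq2 1.42.0, other count filters, a replicate block, leaving out each library, other handling of repeated symbols, and subunits only.

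Members, gene lists and tests were chosen with earlier results of these data known. Genes were named by rule: in each comparison with miRcontrol, the 5 largest called rises and falls at a mean of at least 5 CPM, all past a fold of 2, the 3 highest and lowest members by level, paralogue families, core subunits, and, in the related lists, the 2 largest called rises and falls and the main regulators. NDUFC2, UQCR11, NDUFA7, NDUFA13, NDUFB7 in miR3124_mimic, ATP5J, ATP5J2, ATP5H, ATP5E in miR92b_inhibitor, COX2, ATP6 and CYCS were named after their values were seen. The values of 1 member are not reported here by name.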

Additional observations from a re-analysis of the deposited data

How the results depend on the processing

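Of 385 recomputed counts and medians over the members, 344 stayed close to the reported value, and of 2072 recomputed fold changes of single named members 1926 kept direction and side of the threshold, 123 lost the call, 23 gained one and 0 reversed. For the values that moved, the cause was not tested. With library totals only, the median member was 0.069 in miR3124_mimic and 0.038 between 3-miRNA_mixed and miR200b_mimic. With upper quartile scaling, the medians were 0.081 in miR3124_mimic, -0.026 in miR200b_mimic (reversed), and -0.038 (reversed) and 0.042 in 3-miRNA_mixed against miR3124_mimic and miR200b_mimic. The median of all genes moved with the reversed ones, to -0.046 in miR200b_mimic and -0.053 in 3-miRNA_mixed against miR3124_mimic, so these reversals are not particular to the members. The same scaling left 2 members past a fold of 2 in miR3124_mimic, 10 lower in miR200b_mimic and 24 lower in 3-miRNA_mixed against miR3124_mimic. DESeq2 called 7 higher in miR200b_mimic, 21 in miR92b_inhibitor and 9 in 3-miRNA_mixed, 5 lower against miR3124_mimic and 5 higher against miR200b_mimic. Without a filter on low counts 7 were higher in 3-miRNA_mixed against miR200b_mimic. With 10 counts in every library the median was 0.075 in miR3124_mimic, 2 were lower in miR92b_inhibitor and 18 lower in 3-miRNA_mixed against miR3124_mimic. With subunits only, 1 was higher in 3-miRNA_mixed against miR92b_inhibitor.

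Leaving out 1 library at a time gave medians of 0.0091 to 0.080 in miR3124_mimic, 0.085 to 0.13 in miR92b_inhibitor, -0.045 to 0.030 in 3-miRNA_mixed against miR3124_mimic (reversed without miR3124_mimic replicate 1) and -0.11 to -0.053 against miR92b_inhibitor. Counts of higher members were 12 to 21 in miR3124_mimic, 7 to 9 in miR200b_mimic, 19 to 25 in miR92b_inhibitor, 8 to 12 in 3-miRNA_mixed and 5 to 7 in 3-miRNA_mixed against miR200b_mimic. Counts of lower members were 3 to 6 in miR200b_mimic, 1 to 2 in miR92b_inhibitor and 5 to 13 in 3-miRNA_mixed against miR3124_mimic. Counts past a fold of 2 were 1 to 2 in miR200b_mimic and 0 to 1 in 3-miRNA_mixed. In these fits a group of 1 library is assumed to vary like the others.

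Same-numbered libraries did not deviate together (correlations of -0.06 to 0.06 between groups over 10419 genes), so the numbers were not taken as pairs. With the replicate number as a block, 33 members were higher and 1 lower in miR92b_inhibitor, 21 and 15 in miR3124_mimic, 11 and 5 in miR200b_mimic, and 14 and 11 in 3-miRNA_mixed. With 2 libraries a group, small changes were the least secure. Among calls of named members, those of ATP5C1 in miR3124_mimic and COX4I1 in miR200b_mimic were kept in the fewest alternatives, 4 of 13 each. COX6B2, at a low level and with SEs of 0.32 and 0.33, kept its call in 13 in miR200b_mimic and 12 in 3-miRNA_mixed.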
